A study of Mus musculus with 12 samples.

Results

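The transcripts of 10 genes of cAMP-dependent protein kinase (PKA) and of the proteins that anchor it were followed through 12 libraries of cardiomyocytes from dystrophic mouse hearts. They were taken by gene symbol from a table of 18530 genes: 2 catalytic subunits (Prkaca, Prkacb), 3 regulatory subunits (Prkar1a, Prkar2a, Prkar2b) and 5 A-kinase anchoring proteins, or AKAPs (Akap1, Akap6, Akap9, Akap12, Akap13). All 10 were found, and all 10 passed the filter on low values, which was at least 1 TPM (a transcript level per gene length and library size) in at least 3 libraries.

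There were 4 groups of 3 libraries: mdx:Utrn+/- with PB1046, mdx:Utrn+/- with saline, mdx with PB1046 and mdx with saline. Mice of the mdx line carry a mutation of the dystrophin gene (Dmd) in every cell and are the common mouse model of Duchenne muscular dystrophy, with a mild heart disease; mdx:Utrn+/- mice are in addition heterozygous for a loss of utrophin (Utrn), a relative of dystrophin. All 4 groups are thus dystrophin deficient, and no healthy heart is among them. PB1046 is a long-acting analogue of vasoactive intestinal peptide. It or saline was given every other day between weeks 4 and 12 of age, and hearts were taken in week 14, 2 weeks after dosing had ended. The labels of the treated groups name the high dose, read here as 1.5 mg/kg of the 0.75 and 1.5 mg/kg that the protocol gives. RNA came from frozen pellets of isolated cardiomyocytes. The study's aim, per its design text, was the cAMP-PKA-CREB and NF-kB pathways. The labels do not state that each library is a mouse of its own, so the tests measure the spread between these libraries.

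PKA is the main effector of cAMP. In its resting form a dimer of regulatory subunits holds catalytic subunits inactive; cAMP binds the regulatory subunits and sets the catalytic ones free to phosphorylate their targets. Type I enzyme (with Prkar1a) is largely soluble, and type II enzyme (with Prkar2a or Prkar2b) is mostly held by AKAPs, which place it beside its substrates. In cardiomyocytes these include the calcium channels, phospholamban and the troponin and myosin-binding proteins through which adrenergic drive strengthens the beat, and in the nucleus the transcription factor CREB, which binds the cAMP response element (CRE).

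Since CREB lies at the end of this pathway, the members' own promoters were searched for the CRE, the 8 letters TGACGTCA, and for its shorter core, TGACG, on both strands. The full element contains the core on each strand, so these matches overlap. RefSeq promoters on GRCm38.p6 (250 bases before a start site to 50 after it) were found for 9 of the 10 members, and the one at the start listed in the table was taken. Prkar1a was the only one of these 9 with the full CRE, at -49 from the start site, with a further core match at -187. Across all 32851 promoters of that table, 1.79% held the full CRE and 20.8% the core. Prkaca held a core match at -120 and at -6, Prkacb at -102 and Prkar2a at -4. No match was found in the windows of Prkar2b, Akap1, Akap6, Akap9 or Akap13. Below are the promoters of the most abundant regulatory subunit, of the type II subunit that most cardiac AKAPs bind, and of the main catalytic subunit, 5′ to 3′ on the gene's strand, with CRE letters in capitals. They lie at chr11:109650699-109650998, chr9:108691893-108692192 and chr8:83972728-83973027, all on the plus strand.
Prkar1a: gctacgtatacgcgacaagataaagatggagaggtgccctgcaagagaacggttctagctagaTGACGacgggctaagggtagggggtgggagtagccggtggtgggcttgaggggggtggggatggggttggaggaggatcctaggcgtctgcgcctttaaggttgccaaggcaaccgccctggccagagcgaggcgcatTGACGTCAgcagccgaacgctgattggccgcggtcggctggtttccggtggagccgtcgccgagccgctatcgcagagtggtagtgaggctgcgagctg
Prkar2a: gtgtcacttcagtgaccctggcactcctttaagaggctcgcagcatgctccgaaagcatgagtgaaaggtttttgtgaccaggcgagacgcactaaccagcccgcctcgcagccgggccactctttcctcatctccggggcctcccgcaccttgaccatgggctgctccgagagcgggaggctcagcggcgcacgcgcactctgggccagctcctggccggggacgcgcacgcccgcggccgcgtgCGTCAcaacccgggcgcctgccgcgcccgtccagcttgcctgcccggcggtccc
Prkaca: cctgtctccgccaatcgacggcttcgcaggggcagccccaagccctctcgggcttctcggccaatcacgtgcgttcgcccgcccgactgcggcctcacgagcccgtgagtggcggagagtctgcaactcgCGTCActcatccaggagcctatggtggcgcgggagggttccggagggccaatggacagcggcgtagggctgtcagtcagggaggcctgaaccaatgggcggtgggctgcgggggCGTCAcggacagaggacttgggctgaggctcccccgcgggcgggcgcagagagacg

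The libraries held 7234100 to 25458194 reads, recovered from the deposited TPM. Markers of cardiomyocytes were abundant in every library: the 10 markers summed to 118486 to 160226 TPM, and none was at 0. Cells of other kinds left RNA too, since 15 endothelial markers summed to 1726 to 7949 TPM and none of them was at 0 in any library. The other marker lists summed to 335 to 1892 TPM for fibroblasts, 145 to 488 TPM for smooth muscle and pericytes, 140 to 983 TPM for macrophages, 19.1 to 1098 TPM for erythroid cells, 5.81 to 33.6 TPM for adipocytes and 4.83 to 41.7 TPM for mesothelium. Adipoq, Plin1 and Lep were at 0 in at least 1 library. In bulk RNA, fewer cells of a kind and less RNA per cell cannot be told apart. Utrn had 4.39, 9.92 and 6.21 TPM in mdx:Utrn+/- with PB1046 and 3.32, 6.28 and 5.31 TPM in mdx:Utrn+/- with saline, against 6.11, 17.1 and 18.3 TPM in mdx with PB1046 and 8.92, 9.24 and 11.3 TPM in mdx with saline. Under saline the genotypes did not overlap in Utrn, and under PB1046 they did.

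Prkar1a and Prkaca made up most of the PKA message. Prkar1a had a median of 248 TPM over the 12 libraries (201 to 387), above 96.2% of the 12798 genes tested. Prkaca had a median of 116 TPM (79.1 to 146), above 92.7% of them. Akap1 followed with 33.1 TPM (27.2 to 68.2), Akap6 with 19.7 TPM (13.6 to 31.7), Prkar2a with 16.9 TPM (6.37 to 38.2), Prkacb with 14.8 TPM (10.1 to 23.9), Akap13 with 9.16 TPM (6.14 to 13.95), Akap12 with 7.68 TPM (5.40 to 61.0), Akap9 with 6.20 TPM (2.93 to 7.41) and Prkar2b with 0.978 TPM (0.133 to 5.06). Prkar1a exceeded Prkaca in every library, and both exceeded every other member in every library. From Akap1 down to Prkar2b the ranges of neighbours in this order overlapped. How far a level moved differed more: Prkaca spanned 1.84-fold and Prkar1a 1.93-fold between the lowest and highest library, less than most genes tested, whereas Prkar2a spanned 5.999-fold, Akap12 11.3-fold and Prkar2b 37.9-fold. Prkar2b rested on 7 to 146 reads a library, so its counting error is large, while each other member had at least 178 reads in every library.

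**Figure D1:**
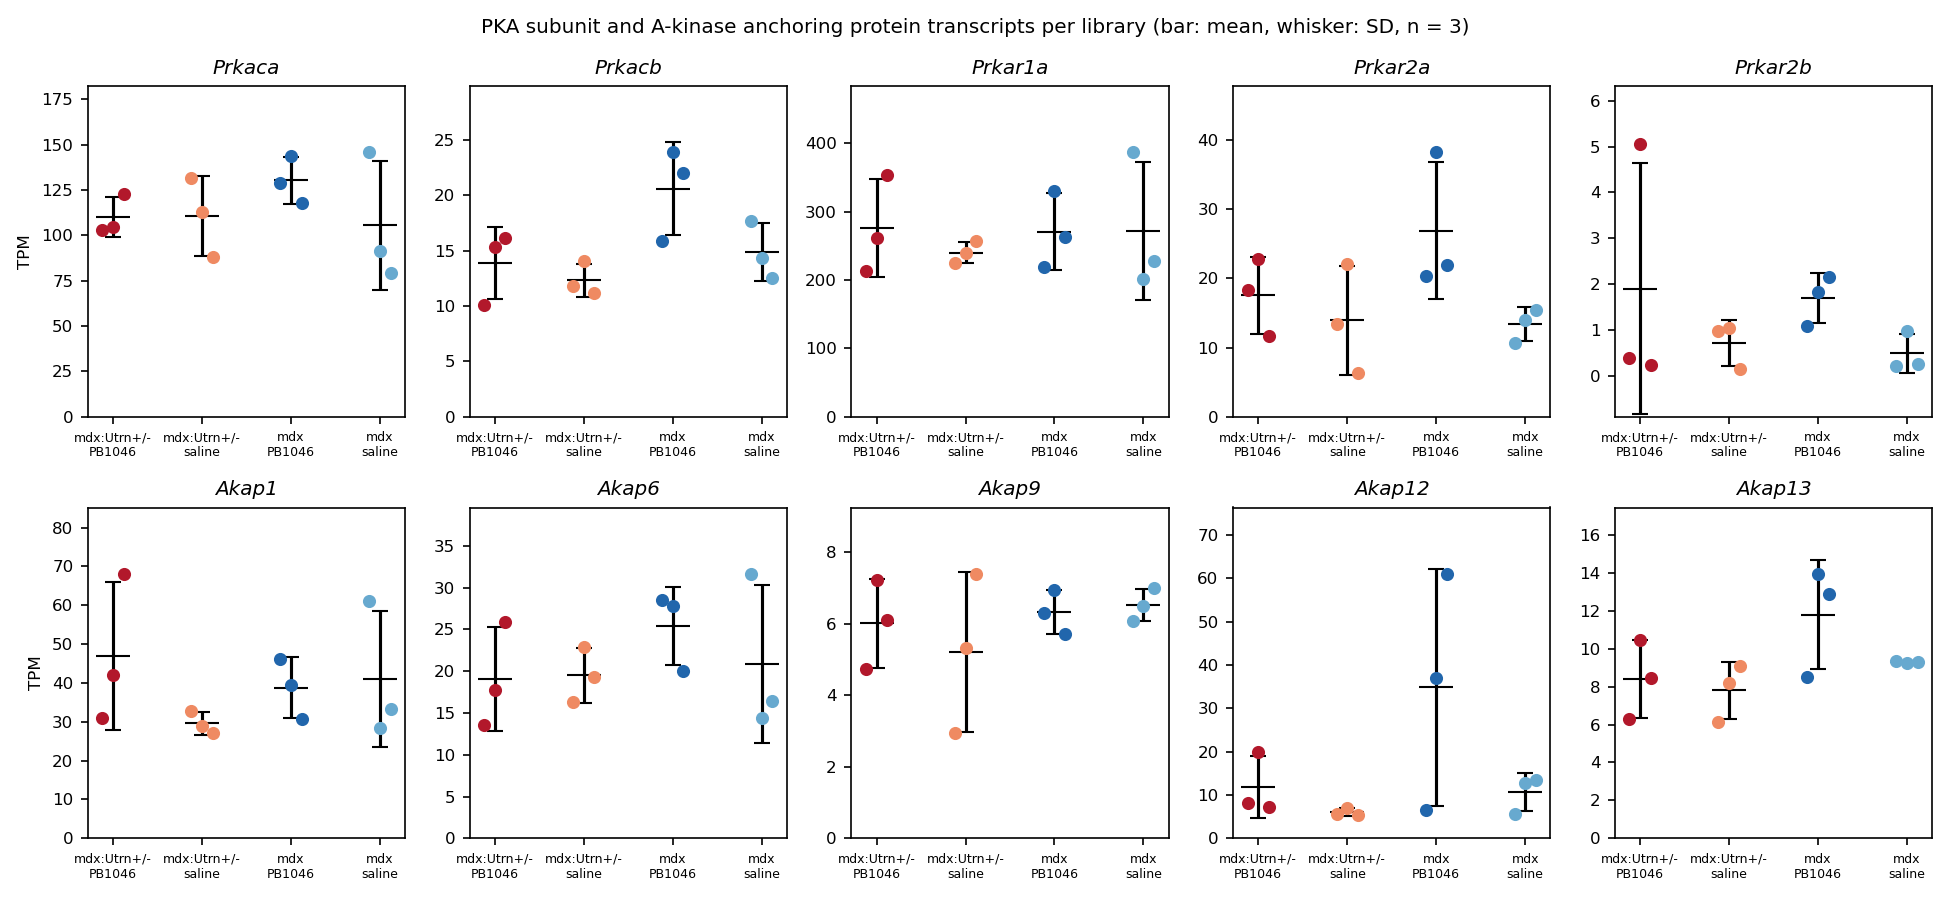
TPM (y axis, from 0 except for Prkar2b, whose whisker passes below 0) of the 10 members in each library, with groups on the x axis; points are libraries, the horizontal bar is the mean and the whisker the SD of 3 libraries. The PB1046 points all lie above the saline points of the same genotype for Prkar2a and Prkar2b in mdx. In mdx:Utrn+/- they do so, narrowly, for Akap12. Akap12 reaches 37.1 and 61.0 TPM in 2 of the 3 PB1046-treated mdx libraries.

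In fold terms, the ratio of regulatory to catalytic transcripts varied less than the shares of the minor subunits. Regulatory transcripts together exceeded catalytic ones 1.66- to 2.66-fold in summed TPM in the 12 libraries. The ratio averaged 2.36 ± 0.29 with PB1046 and 2.13 ± 0.50 with saline in mdx:Utrn+/-, and 1.98 ± 0.29 with PB1046 and 2.38 ± 0.31 with saline in mdx (SD, n = 3 each). In both genotypes the treatments overlapped. Prkar1a gave 89.2% to 97.5% of the regulatory TPM in every library. Prkar2a gave 8.48%, 10.3% and 7.62% in mdx with PB1046, against 2.67%, 6.45% and 6.34% in mdx with saline, so that here the treatments did not overlap. In mdx:Utrn+/- its share was 7.88%, 7.84% and 3.20% with PB1046, against 5.59%, 8.40% and 2.42% with saline, which overlapped. Prkar2b never gave more than 1.75%. Prkacb gave 8.21% to 15.7% of the catalytic TPM.

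**Figure D2:**
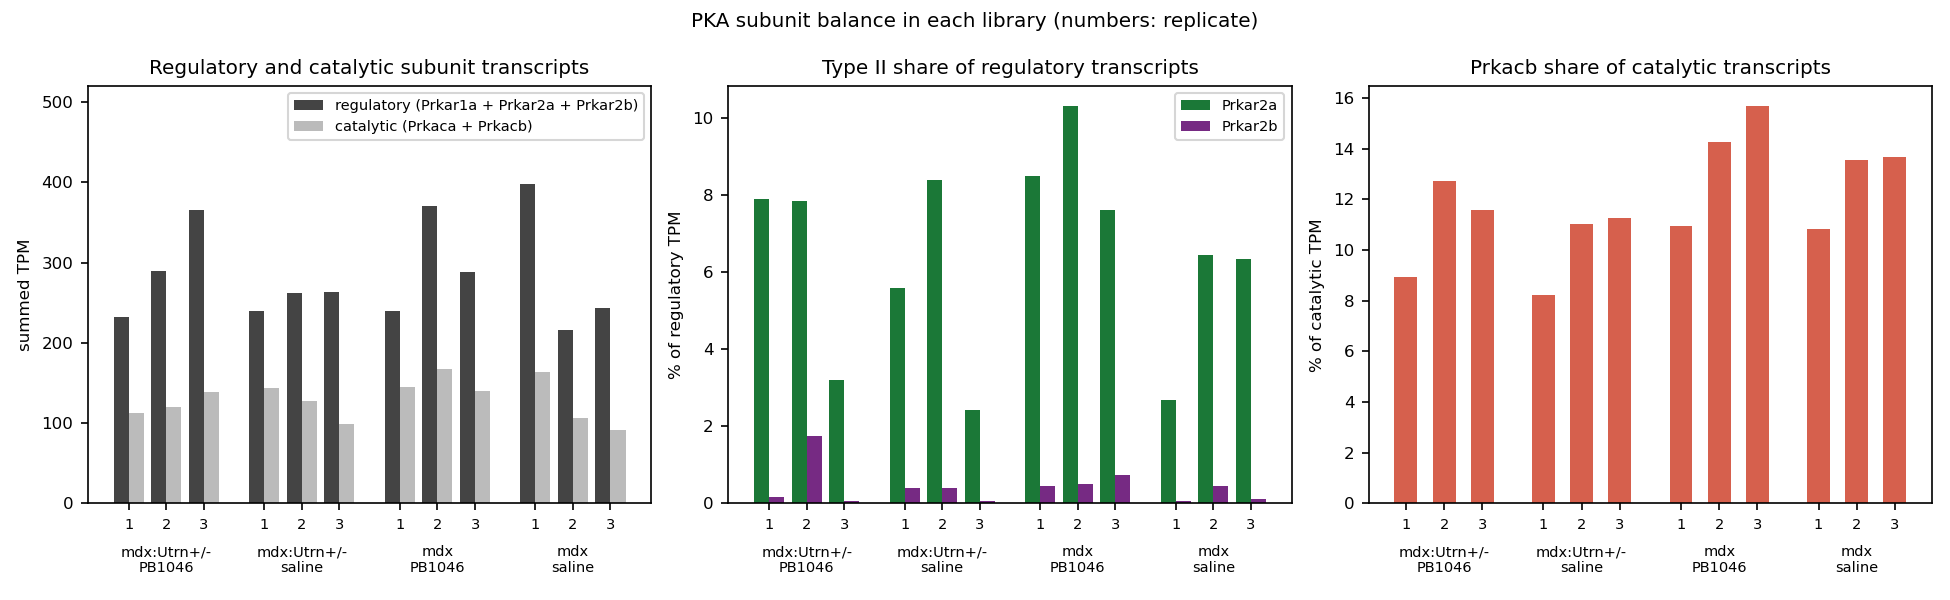
Left, summed TPM of the regulatory and of the catalytic subunits in each library; middle, Prkar2a and Prkar2b as a percent of regulatory TPM; right, Prkacb as a percent of catalytic TPM (bars start at 0, numbers are replicates). Regulatory transcripts exceed catalytic ones in all 12 libraries, and the Prkar2a share lies between 7.62% and 10.3% in the PB1046-treated mdx libraries.

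Groups were compared by limma on log2(TPM + 1) across all 12798 genes, and a log2 difference below is on that scale, which understates the difference of scarce genes. No gene passed a Benjamini-Hochberg adjusted p of 0.05 in any of the 7 comparisons, so 0% of the genes tested were called, and no member was called. At an unadjusted p under 0.05, limma gave 0 of the 10 members in each of the 7 comparisons; the background was 0.883% of all genes higher and 1.07% lower for PB1046 in mdx:Utrn+/-, and 1.85% higher and 1.23% lower for PB1046 in mdx. For mdx:Utrn+/- against mdx it was 0.867% higher and 0.797% lower under PB1046 and 2.32% higher and 1.7% lower under saline. For the difference of the PB1046 responses it was 1.08% higher and 1.18% lower, for PB1046 over both genotypes 1.34% and 1.15%, and for genotype over both treatments 2.56% and 1.09%. Some alternatives put single members under an unadjusted p of 0.05. For PB1046 in mdx, limma gave 0.0170 for Prkar2a and 0.0165 for Prkar2b with only those 2 groups fitted, and 0.00409 for Akap12 with an endothelial marker score as a term; the adjusted p of these 3 differences was at least 0.655 under every alternative. The sign of the members' differences was mixed. With PB1046, 7 of 10 were higher in mdx (median 0.19) and 5 of 10 in mdx:Utrn+/- (median 0.03), where the medians of all genes were -0.0013 and -0.0098. For mdx:Utrn+/- against mdx, 4 of 10 were higher under PB1046 (median -0.18) and 6 of 10 under saline (median 0.07), where all genes gave 0.01 and 0.03. Without scaling factors the signs moved: 8 of 10 were then higher with PB1046 in mdx, 9 of 10 in mdx:Utrn+/-, and 2 of 10 were higher in mdx:Utrn+/- under either treatment. That setting shifts the median of all genes to 0.14, 0.15, -0.20 and -0.20 in these 4 comparisons.

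**Figure D3:**
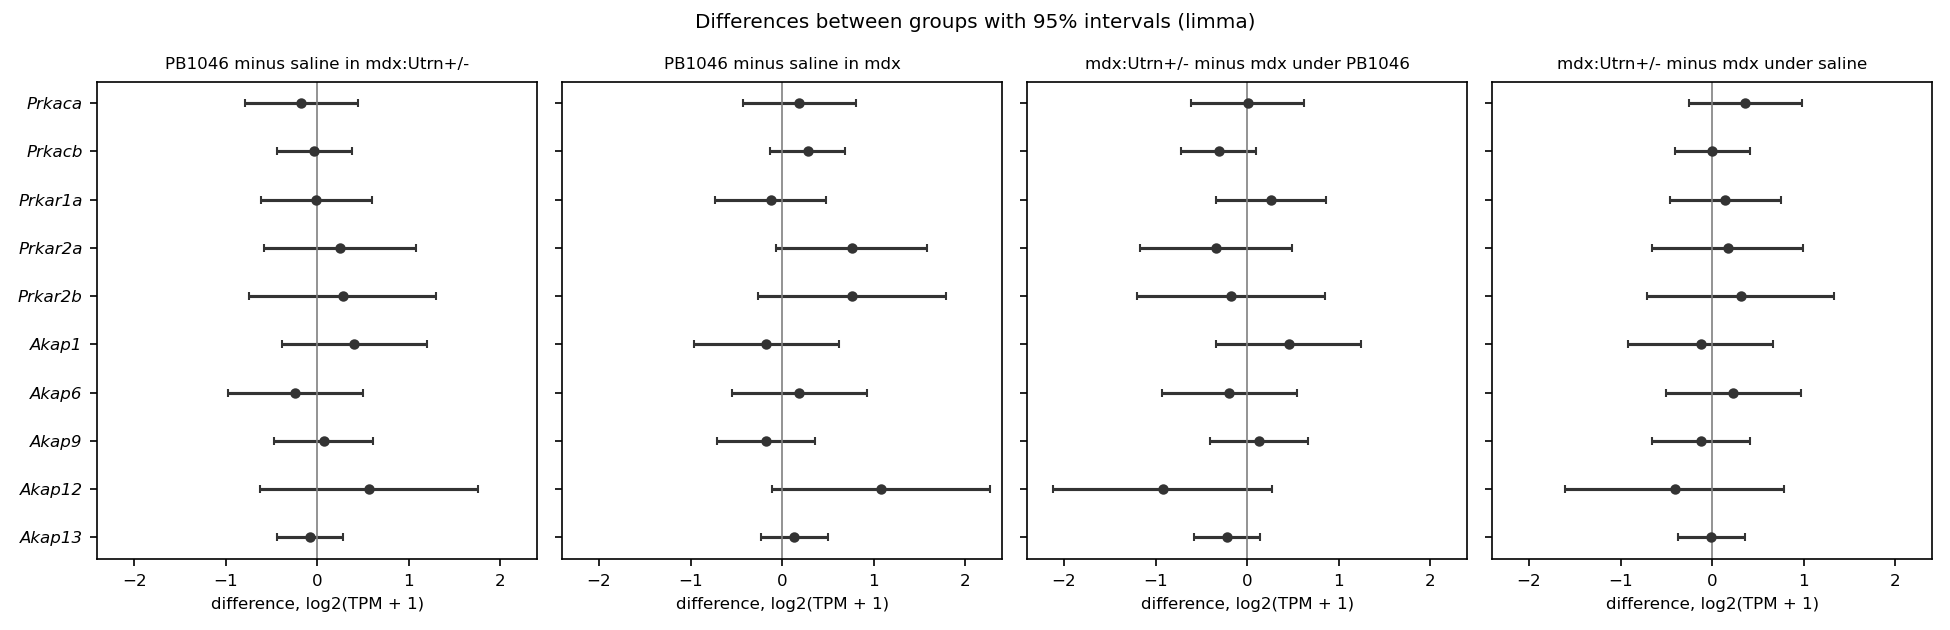
Differences in log2(TPM + 1) (x axis) of each member (rows) for PB1046 minus saline in both genotypes and for mdx:Utrn+/- minus mdx under both treatments; points are limma estimates and bars 95% intervals. Every interval includes 0; the estimates farthest from it are those of Akap12, Prkar2b and Prkar2a.

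Among the catalytic subunits, Prkaca encodes the main cardiac isoform. It had 103, 105 and 123 TPM in mdx:Utrn+/- with PB1046 and 132, 113 and 87.8 TPM in mdx:Utrn+/- with saline. In mdx it had 129, 144 and 118 TPM with PB1046, against 146, 91.6 and 79.1 TPM with saline. The groups overlapped in all 4 comparisons, genotypes under PB1046 only between 118 and 123 TPM. In mdx the log2 difference of PB1046 over saline was 0.19 (95% interval -0.43 to 0.80; adjusted p = 0.999). Under saline, mdx:Utrn+/- minus mdx was 0.36 (-0.25 to 0.98; adjusted p = 0.853). Prkaca ran against the endothelial marker score, the mean centred log2 level of those 15 genes, with a Pearson r of -0.80 over the 12 libraries (rho -0.79; -0.77 without the 2 libraries farthest from the median score). With that score as a term the genotype difference under saline was 0.090. It was 0.64 without mdx saline replicate 1 (unadjusted p = 0.0349, adjusted p = 0.588, limma), 0.20 without mdx saline replicate 3, 0.21 without mdx:Utrn+/- saline replicate 1 and 0.10 without scaling factors. The PB1046 difference in mdx was 0.46 without mdx saline replicate 1, 0.071 without replicate 2, 0.020 without replicate 3 and 0.034 without mdx PB1046 replicate 1. The share of endothelial RNA in this result was not tested further.

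Prkacb, the second catalytic isoform, had 10.1, 15.3 and 16.1 TPM in mdx:Utrn+/- with PB1046 and 11.8, 14.0 and 11.2 TPM in mdx:Utrn+/- with saline. In mdx it had 15.8, 23.9 and 22.0 TPM with PB1046, against 17.7, 14.3 and 12.5 TPM with saline. In TPM the 2 highest libraries were both mdx with PB1046, and the third of that group lay inside the saline range. After scaling, the mdx values were 4.17, 4.31 and 4.15 with PB1046 on the log2 scale, against 4.23, 3.82 and 3.74 with saline. Only PB1046 replicate 2 then lay above the saline range. The log2 difference of PB1046 over saline in mdx was 0.28 (-0.13 to 0.69; adjusted p = 0.999), and that of mdx:Utrn+/- over mdx under PB1046 was -0.31 (-0.72 to 0.10; adjusted p = 1.00).

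Among the regulatory subunits, Prkar1a, of the soluble type I enzyme, had 213, 262 and 354 TPM in mdx:Utrn+/- with PB1046 and 225, 239 and 257 TPM in mdx:Utrn+/- with saline. It had 219, 331 and 264 TPM in mdx with PB1046, against 387, 201 and 228 TPM in mdx with saline. The groups overlapped in all 4 comparisons. The highest value belonged to the most deeply sequenced library, mdx with saline replicate 1. After scaling, the group means on the log2 scale were 8.12 ± 0.38 in mdx:Utrn+/- with PB1046, 8.13 ± 0.057 in mdx:Utrn+/- with saline, 7.86 ± 0.18 in mdx with PB1046 and 7.99 ± 0.55 in mdx with saline (SD, n = 3 each).

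Prkar2a encodes the type II regulatory subunit that most cardiac AKAPs bind. It had 20.4, 38.2 and 21.9 TPM in mdx with PB1046, against 10.6, 13.9 and 15.4 TPM in mdx with saline, so every treated library lay above every saline library. The means were 26.8 ± 9.88 TPM with PB1046 and 13.3 ± 2.46 TPM with saline (SD, n = 3 each). The log2 difference was 0.76 (-0.07 to 1.59; unadjusted p = 0.0686, adjusted p = 0.999, limma). Overlap of the groups was counted over all genes on the scaled log2 values. Of the 10 members, Prkar2a and Prkar2b did not overlap with PB1046 higher in mdx, where 4.03% of all genes tested did not. None of the 10 did so in the other direction, where 4.27% did not. For PB1046 in mdx:Utrn+/-, 0 of 10 members did not overlap in either direction (2.94% of all genes higher, 2.72% lower). For mdx:Utrn+/- against mdx under saline it was likewise 0 of 10 (5.47% higher, 4.1% lower). In TPM before scaling, Akap12 was apart in the first of these 2 comparisons (higher) and Akap13 in the second (lower). In mdx:Utrn+/- Prkar2a had 18.3, 22.7 and 11.7 TPM with PB1046, against 13.4, 22.0 and 6.37 TPM with saline, which overlapped. There the log2 difference was 0.25 (-0.58 to 1.07; adjusted p = 0.998). The PB1046 response in mdx:Utrn+/- minus that in mdx was -0.51 (-1.68 to 0.66; adjusted p = 0.999), so a difference between the genotypes was not detected. Over both genotypes, PB1046 minus saline was 0.50 (-0.08 to 1.09; adjusted p = 1.00).

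Prkar2a moved with a measure of the libraries that is outside the PKA pathway. Rn45s, the precursor of ribosomal RNA, had 21290, 25861 and 11570 TPM in mdx with PB1046. In mdx with saline it had 1039, 7611 and 10403 TPM, so the groups did not overlap in TPM. The library at 11570 TPM had a scaling factor of 1.31 and that at 10403 TPM one of 1.01. After scaling the first lay below the second, so the groups then overlapped. Over all 12 libraries Prkar2a and Rn45s had a Pearson r of 0.86 on the log2 scale (rho 0.87; 0.91 without the 2 libraries whose Rn45s was most extreme). With group means removed r was 0.90, so the relation was seen within groups as well. Against the number of recovered reads r was -0.88 (rho -0.94; -0.91 without the 2 farthest). Reads numbered 14029004, 11468009 and 14182350 in mdx with PB1046, against 25458194, 18162940 and 19290414 in mdx with saline. With Rn45s as a term the PB1046 difference in mdx was 0.26 and the difference between the genotypes turned to 0.19. Without mdx:Utrn+/- saline replicate 3, the library with the lowest Prkar2a, the PB1046 difference in mdx:Utrn+/- turned to -0.21. Treatment and these properties of the libraries cannot be told apart in mdx.

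Prkar2b, the type II subunit best known from brain and fat, had 1.09, 1.82 and 2.16 TPM in mdx with PB1046, against 0.216, 0.983 and 0.248 TPM in mdx with saline. The reads behind these values were 29, 37 and 58 with PB1046 and 11, 37 and 10 with saline. Treated libraries again lay above all saline ones. The log2 difference was 0.76 (-0.27 to 1.78; adjusted p = 0.999), and 1.98 by limma-voom on recovered reads, which adds no TPM of its own. In mdx:Utrn+/- Prkar2b had 0.393, 5.06 and 0.238 TPM with PB1046, against 0.974, 1.04 and 0.133 TPM with saline. The value of 5.06 TPM stood alone in all 12 libraries. The log2 difference there was 0.28 (-0.75 to 1.30; adjusted p = 0.998). It was -0.38 without that library and -0.03 without mdx:Utrn+/- saline replicate 3. Over both genotypes, PB1046 minus saline was 0.52 (-0.21 to 1.24; adjusted p = 1.00), and 0.19 without the library at 5.06 TPM.

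The 3 genes whose pattern was most like that of Prkar2b over the 12 libraries were Itgb3, P2ry12 and Gp9 (Pearson r 0.94, 0.93 and 0.93), all of them well-known platelet genes. A list of 12 platelet genes, chosen after this was seen, summed to 16.5, 371 and 20.8 TPM in mdx:Utrn+/- with PB1046 and 53.9, 28.9 and 12.8 TPM in mdx:Utrn+/- with saline. It summed to 26.6, 68.3 and 172 TPM in mdx with PB1046, against 15.7, 48.9 and 13.03 TPM in mdx with saline. The library at 371 TPM is the one with 5.06 TPM of Prkar2b. The mean score of the 9 platelet genes that passed the filter had an r of 0.94 with Prkar2b (rho 0.90; 0.90 without the 2 farthest libraries). With this score as a term, the PB1046 difference of Prkar2b was 0.19 in mdx and -0.11 in mdx:Utrn+/-. Since the list was chosen after the likeness was seen in the same libraries, these values are no independent test of it. The part of platelet RNA in Prkar2b was not tested. Erythroid markers also ran with Prkar2b, at an r of 0.76.

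**Figure D4:**
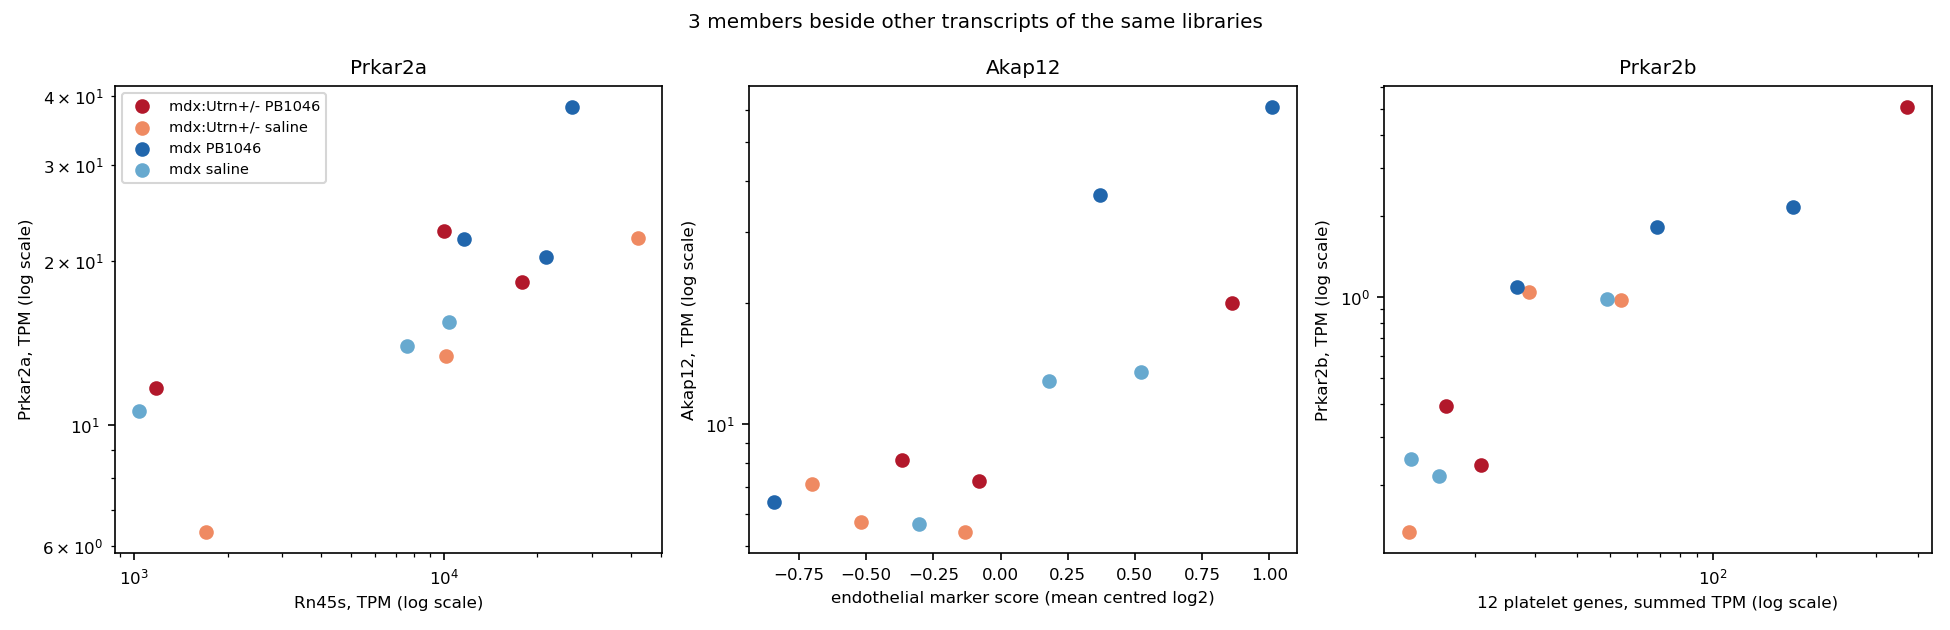
Left, Prkar2a against Rn45s; middle, Akap12 against the endothelial marker score; right, Prkar2b against the summed TPM of 12 platelet genes; each point is a library, coloured by group, and TPM axes are logarithmic. Prkar2a and Prkar2b tend upward along the x axis, and the highest Akap12 values, 61.0 and 37.1 TPM, are mdx libraries with PB1046 at endothelial scores of 1.01 and 0.37.

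Among the anchors, Akap12 (gravin), which holds PKA beside adrenergic receptors at the plasma membrane, varied most. It had 6.42, 37.1 and 61.0 TPM in mdx with PB1046, against 5.65, 12.8 and 13.5 TPM in mdx with saline. In mdx:Utrn+/- it had 8.13, 19.98 and 7.22 TPM with PB1046, against 5.72, 7.10 and 5.40 TPM with saline. In mdx, 2 of 3 treated libraries lay above all saline ones and the other lay at their low end; in mdx:Utrn+/-, all 3 treated libraries lay above the saline ones in TPM. After scaling, the lowest treated value was 3.10 and the highest saline value 3.21 on the log2 scale, so these overlapped. The log2 difference of PB1046 over saline was 1.08 in mdx (-0.12 to 2.27; unadjusted p = 0.0729, adjusted p = 0.999), 0.56 in mdx:Utrn+/- (-0.63 to 1.76; adjusted p = 0.998) and 0.82 over both (-0.02 to 1.66; unadjusted p = 0.0558, adjusted p = 1.00). The mdx:Utrn+/- libraries were lower than the mdx ones by fitted mean, with a difference of -0.92 under PB1046 (-2.12 to 0.27; adjusted p = 1.00), -0.41 under saline (-1.60 to 0.78; adjusted p = 0.887) and -0.67 over both treatments (-1.51 to 0.18; adjusted p = 0.857).

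The Akap12 difference in mdx changed in size, though not in sign, when single libraries were left out. It was 1.83 without mdx PB1046 replicate 1 (unadjusted p = 0.000547, adjusted p = 0.655, limma) and 0.53 without mdx PB1046 replicate 3, and the genotype difference under PB1046 was -1.68 and -0.38 without the same libraries. Replicate 1 is also among the 3 libraries with the lowest library numbers in the labels (the others being replicate 1 of either mdx:Utrn+/- group), and with a term for those 3 the difference was 1.36. They fall 1 to each of those 3 groups and none is in mdx with saline, so no value within them can be given. Endothelial scores were -0.84, 0.37 and 1.01 in mdx with PB1046, against -0.30, 0.18 and 0.52 in mdx with saline, in the same order as Akap12 within both mdx groups. The scores in mdx:Utrn+/- were -0.37, 0.86 and -0.082 with PB1046, against -0.52, -0.70 and -0.13 with saline, and did not follow the order of Akap12 within either group. Over the 12 libraries the Pearson r of Akap12 was 0.81 with the endothelial score (rho 0.73; 0.68 without the 2 farthest) and -0.93 with the cardiomyocyte score (rho -0.83; -0.79 without the 2 farthest). It was 0.77 with the mesothelial score and 0.71 with that of smooth muscle and pericytes. With the endothelial score as a term, the PB1046 difference was 1.02 in mdx and -0.10 in mdx:Utrn+/-, and the genotype difference under saline was 0.24. The PB1046 difference was 0.57 in mdx and 0.22 in mdx:Utrn+/- with the platelet score as a term. It was 0.90 in mdx and 0.64 in mdx:Utrn+/- with Rn45s as a term. The cardiomyocyte score was not used as a term. The genes most like Akap12 were Cdr2, Gnai3 and Cttnbp2nl (r 0.97, 0.97 and 0.96); as few libraries were high, these values rest largely on them.

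Akap1, which tethers PKA to the outer mitochondrial membrane, had 31.0, 42.0 and 68.2 TPM in mdx:Utrn+/- with PB1046, against 32.8, 28.8 and 27.2 TPM in mdx:Utrn+/- with saline. In mdx it had 46.3, 39.4 and 30.8 TPM with PB1046, against 61.1, 28.5 and 33.4 TPM with saline. In TPM, 2 of 3 treated libraries were above all saline ones in mdx:Utrn+/-, and in mdx the treatments overlapped throughout. After scaling, the mdx:Utrn+/- values were 5.27, 5.19 and 6.18 with PB1046 on the log2 scale, against 5.33, 5.11 and 4.99 with saline. Only PB1046 replicate 3 then lay above all saline libraries. The log2 difference was 0.40 in mdx:Utrn+/- (-0.38 to 1.19; adjusted p = 0.998), and 0.086 without PB1046 replicate 3. The PB1046 response in mdx:Utrn+/- minus that in mdx was 0.58 (-0.54 to 1.69; adjusted p = 0.999). Under PB1046, mdx:Utrn+/- minus mdx was 0.45 (-0.34 to 1.24; adjusted p = 1.00). An antisense entry, 4930556N13Rik, overlaps Akap1, and whether counting used the strand is not given in the sources used here.

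Akap6 (mAKAP), the anchor of the cardiomyocyte's nuclear envelope, had 13.6, 17.7 and 25.9 TPM in mdx:Utrn+/- with PB1046, against 16.3, 22.9 and 19.3 TPM in mdx:Utrn+/- with saline. In mdx it had 28.5, 27.8 and 20.04 TPM with PB1046, against 31.7, 14.4 and 16.4 TPM with saline. All groups overlapped, and the highest value was again in mdx with saline replicate 1. The log2 difference of PB1046 over saline in mdx:Utrn+/- was -0.24 (-0.98 to 0.50; adjusted p = 0.998).

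Akap9 (yotiao), which joins PKA to the slow delayed-rectifier potassium channel, had 4.73, 7.22 and 6.10 TPM in mdx:Utrn+/- with PB1046 and 2.93, 5.33 and 7.41 TPM in mdx:Utrn+/- with saline. It had 6.30, 6.96 and 5.73 TPM in mdx with PB1046, against 6.09, 6.51 and 7.001 TPM in mdx with saline. In mdx the treatments overlapped and the log2 difference was -0.18 (-0.72 to 0.36; adjusted p = 0.999). Akap13 (AKAP-Lbc), an anchor that is also an activator of the small GTPase RhoA, had 6.30, 10.4 and 8.43 TPM in mdx:Utrn+/- with PB1046 and 6.14, 8.16 and 9.08 TPM in mdx:Utrn+/- with saline. It had 8.52, 13.95 and 12.9 TPM in mdx with PB1046, against 9.37, 9.25 and 9.31 TPM in mdx with saline, which were nearly equal to each other. Under PB1046 the genotypes overlapped in TPM. After scaling they did not: the mdx:Utrn+/- values were 3.11, 3.30 and 3.30 and the mdx values 3.35, 3.58 and 3.44 on the log2 scale. Akap13 was the 1 member of 10 that did not overlap in this direction, where 3.17% of all genes tested did not; 0 of 10 did so in the other direction, against 2.52% of all genes. The log2 difference was -0.22 (-0.58 to 0.14; adjusted p = 1.00).

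Some members varied together. Of the 45 pairs, Akap1 and Prkar1a were most alike over the 12 libraries (Pearson r 0.79), followed by Akap6 with Prkar1a (0.77), Akap6 with Prkaca (0.75) and Akap6 with Akap1 (0.73). Akap12 ran against these 4, at -0.63 with Akap1, -0.58 with Prkar1a, -0.56 with Prkaca and -0.55 with Akap6. The points share library, depth and makeup of cells, and the values describe these 12 libraries. Outside the members, the genes most like Prkar1a were Nol3, Ndufaf7 and Mir686 (0.95 each) and those most like Akap1 were Mrpl1, Mkrn2 and Retsat (0.94, 0.94 and 0.93). Akap6 was most like Mut, Pcca and Rad23b (0.95, 0.95 and 0.93), and Prkaca most like Klhl21, Pcyox1 and Nutf2 (0.97, 0.97 and 0.96). For Prkar2a these were Exoc4, Snx9 and Adamts4 (0.96, 0.94 and 0.94), and for Prkacb Tceb3, Impa1 and Arpc2 (0.91, 0.91 and 0.90). For Akap9 they were Tcea3, Ctage5 and Ufl1 (0.95, 0.93 and 0.91), and for Akap13 B230219D22Rik, Atf2 and Smarcc2 (0.90, 0.88 and 0.88).

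**Figure D5:**
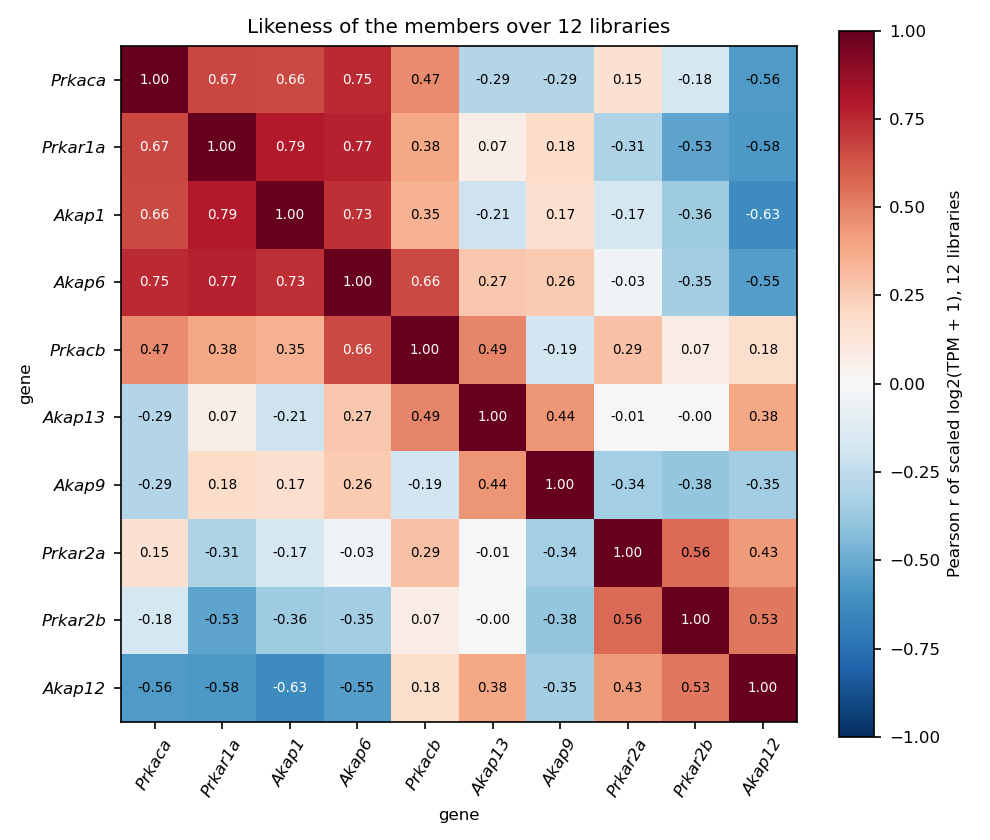
Pearson r between the scaled log2(TPM + 1) of each pair of members (both axes are genes) over 12 libraries, from -1 in blue to 1 in red. Prkaca, Prkar1a, Akap1 and Akap6 form a block of 0.66 to 0.79, and Akap12 is at -0.55 to -0.63 with each of these 4.

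The authors' deposited table holds their own comparison of each pair of groups, with a false discovery rate under 0.05 for no gene. In it a fold change is positive where the group named later is higher. For mdx with PB1046 and mdx with saline, named in that order, the authors' deposited table gives -1.44 for Akap12 (p-value 0.00367, false discovery rate 1) and -0.83 for Prkar2a (p-value 0.0293, false discovery rate 1), so both are higher with PB1046. For Prkar2b the authors' deposited table gives -1.64 (p-value 0.0591). In that comparison 4.07% of the 18530 genes have a p-value under 0.05 in the authors' deposited table, and 2 of the 10 members do.

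Of the other PKA genes, 4 of 5 on the list were tested: Prkar1b (a further type I subunit), Prkx (a related kinase) and the inhibitors Pkia and Pkig; none passed the adjusted threshold, and none had an unadjusted p under 0.05. Prkx had 3.88, 14.7 and 11.8 TPM in mdx with PB1046, against 3.11, 5.87 and 6.26 TPM in mdx with saline (log2 difference 0.60, -0.13 to 1.32; adjusted p = 0.999). Pkig, which was more abundant than Prkar1a in most libraries, averaged 297 ± 33.4 TPM with PB1046 and 358 ± 58.6 TPM with saline in mdx:Utrn+/- (SD, n = 3 each), a log2 difference of -0.45 (-0.92 to 0.03; adjusted p = 0.998). In the same comparison Pkia averaged 88.9 ± 8.71 TPM with PB1046 and 60.6 ± 17.1 TPM with saline, a difference of 0.40 (-0.30 to 1.09; adjusted p = 0.998). Prkar1b, at 0.426 to 2.41 TPM, was the scarcest of these 4; mdx:Utrn+/- minus mdx under saline was 0.50 (-0.10 to 1.09; adjusted p = 0.853).

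Of 28 other AKAPs listed, 26 are in the table and 20 were tested. With PB1046, 14 of 20 were higher in mdx and 14 of 20 in mdx:Utrn+/- (medians 0.12 and 0.14), where 49.8% and 48.5% of all genes were. Past the adjusted threshold there were 0. At an unadjusted p under 0.05 limma gave 1 higher in either genotype, against 1.85% and 0.883% of all genes. In mdx it was Akap2, an anchor with an actin link, which had 25.3, 77.6 and 65.6 TPM with PB1046, against 30.2, 26.8 and 30.3 TPM with saline (log2 difference 0.62, 0.05 to 1.19; adjusted p = 0.999). The same 2 libraries that were high in Akap12 were high in Akap2, and the third lay below all saline values in TPM, but not after scaling. In mdx:Utrn+/- it was Akap17b, with 2.77, 3.31 and 1.84 TPM with PB1046, against 1.26, 0.810 and 1.34 TPM with saline (0.66, 0.17 to 1.15; adjusted p = 0.998), groups that did not overlap. Gskip, an anchor that also binds glycogen synthase kinase, averaged 10.2 ± 2.07 TPM with PB1046 and 6.91 ± 0.97 TPM with saline in mdx (0.34, -0.02 to 0.70; adjusted p = 0.999). Arfgef2, a Golgi anchor, differed by 0.39 for mdx:Utrn+/- minus mdx under saline (-0.05 to 0.83; adjusted p = 0.853).

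All 28 genes listed as partners that AKAPs hold were tested. With PB1046 in mdx:Utrn+/-, 15 were higher and 13 lower (median 0.03), where 48.5% of all genes were higher. For mdx:Utrn+/- against mdx, 13 were higher under PB1046 (median -0.04) and 15 under saline (median 0.01). Of all genes, 52.2% and 53.4% were higher in these 2 comparisons. With PB1046 in mdx, 18 were higher and 10 lower (median 0.10), where 49.8% of all genes were higher. Limma gave 1 in each direction at an unadjusted p under 0.05, against 1.85% of all genes higher and 1.23% lower. Pde3a, a phosphodiesterase that breaks down cAMP, had 5.83, 6.13 and 3.83 TPM with PB1046, against 2.59, 1.46 and 1.82 TPM with saline, with no overlap (log2 difference 0.94, 0.22 to 1.66; adjusted p = 0.999). Hif1a, a transcription factor of the oxygen response, had 22.6, 33.0 and 27.4 TPM with PB1046, against 50.3, 31.9 and 32.0 TPM with saline (-0.59, -1.10 to -0.08; adjusted p = 0.999). These overlapped in TPM, and after scaling they did not. Rock2, a kinase downstream of RhoA, averaged 36.003 ± 11.97 TPM with PB1046 and 22.2 ± 4.30 TPM with saline (0.49, -0.05 to 1.02; adjusted p = 0.999). Ppp3ca, a calcineurin catalytic subunit, differed by -0.29 for mdx:Utrn+/- minus mdx under PB1046 (-0.64 to 0.06; adjusted p = 1.00).

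All 20 genes listed as cardiac PKA substrates were tested, and here the counts leaned toward the genotype: 18 of 20 were higher in mdx:Utrn+/- than in mdx under PB1046 (median 0.31) and 16 of 20 under saline (median 0.28), where 52.2% and 53.4% of all genes were. Cardiomyocyte markers leaned the same way, 10 of 10 under PB1046 and 7 of 10 under saline (medians 0.33 and 0.11), and the lists share Tnni3, Ryr2 and Pln. Under PB1046, 14 of 14 fibroblast, 9 of 10 smooth muscle and pericyte and 14 of 15 macrophage markers were lower in mdx:Utrn+/- (medians -0.71, -0.42 and -0.43). Under saline, 14 of 15 endothelial markers were lower (median -0.57) and 15 of 15 macrophage markers were higher (median 0.39). The part of these lists in the counts was not tested. With PB1046 in mdx, 6 substrates were higher and 14 lower (median -0.16), where 49.8% of all genes were higher. Limma gave 2 lower ones at an unadjusted p under 0.05, against 1.23% of all genes, and 0 past the adjusted threshold. In that comparison 9 of 10 cardiomyocyte markers were lower (median -0.30), while 13 of 14 fibroblast, 9 of 10 smooth muscle and pericyte and 14 of 15 macrophage markers were higher (medians 0.51, 0.37 and 0.39); their part in these values was not tested. Rrad, a small GTPase that restrains the L-type calcium channel until PKA phosphorylates it, had 128, 148 and 140 TPM with PB1046, against 415, 254 and 264 TPM with saline, with no overlap (log2 difference -1.29, -2.00 to -0.57; unadjusted p = 0.00203, adjusted p = 0.999). Cacna1c, the pore of that channel, had 32.0, 23.4 and 15.9 TPM with PB1046, against 40.9, 37.3 and 44.9 TPM with saline (-0.97, -1.91 to -0.02; adjusted p = 0.999). These did not overlap in TPM. After scaling, the treated library at 32.0 TPM lay slightly above the saline library at 37.3 TPM, so they overlapped. In mdx:Utrn+/- Rrad had 195, 187 and 315 TPM with PB1046, against 288, 279 and 162 TPM with saline, which overlapped. Cacna1c there averaged 31.9 ± 3.58 TPM with PB1046 and 30.2 ± 23.4 TPM with saline (SD, n = 3 each). Kcne1, the auxiliary subunit of the potassium channel that Akap9 binds, differed by 0.67 for mdx:Utrn+/- minus mdx under PB1046 (0.0038 to 1.33; adjusted p = 1.00). Creb1, the CREB gene itself, had 3.19, 3.37 and 3.96 TPM in mdx:Utrn+/- with saline, against 4.81, 6.58 and 7.07 TPM in mdx with saline, with no overlap (-0.44, -0.90 to 0.01; adjusted p = 0.853).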

How the data were processed

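RNA-seq of poly-A RNA from isolated cardiomyocytes covered 4 groups of 3 libraries; groups and replicate numbers were read from the sample titles. The authors deposited 1 table of 18530 genes (and an identical copy, not used). Its name speaks of raw counts; the deposited values are TPM, since each library sums to 1000000. Per the file headers the authors' 6 pairwise comparisons hold p-values, false discovery rates, likelihood ratios (a score per gene), log2 fold changes and mean log2 CPM. The submitters' processing notes name edgeR and mm10. The aligner, the counter and the lengths behind the TPM were not given in the sources used here. The authors' fold changes run from the group named first to the one named second (r -0.992 to -0.989 with the first minus the second).

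TPM of a gene in a library come in steps of 1 read, and dividing by the step gave whole reads within 0.1 for 100% of genes. They served only depth and limma-voom. A trimmed-mean factor per library (30% of ratios and 5% of levels trimmed; 0.828 to 1.31) scaled the TPM, which were taken as log2(TPM + 1). The 12798 genes that reached 1 TPM in 3 libraries or more were fitted by group with limma 3.58.1 in R 4.3.3 (trend and robust), with p-values adjusted by Benjamini-Hochberg over all genes and 95% intervals. The fit was tried on simulated counts with changes of known size in mdx with PB1046. Those counts had a fixed spread and no differences in cell makeup, so they cannot show what the fit would detect in these libraries. The alternatives were other pseudocounts (0.1 and 4), filters (none and 5 TPM) and scalings, limma-voom, only the groups compared, a replicate block, terms for library number, the endothelial score, Rn45s and, added later, a platelet score, removal of length and level trends, and leaving out each library. Marker scores are mean centred log2 levels; other lists of non-cardiomyocyte markers (fibroblast, smooth muscle and pericyte, macrophage, erythroid, adipocyte, mesothelial) were scored likewise, and 1 further list is not reported here. No 2 libraries of a group agreed within sampling noise.

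All 10 members are named in all comparisons, with up to 4 genes from each other list (smallest unadjusted p in a comparison of 2 groups) and the 3 genes most like each member. The members and lists were chosen with earlier results of these data known.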

Additional observations from a re-analysis of the deposited data

How the results depend on the processing

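Under 26 alternatives the 23 member differences given with an interval in the text were computed 589 times; none passed an adjusted p of 0.05, and 8 turned sign. With the endothelial score as a term, PB1046 in mdx:Utrn+/- gave 0.064 for Akap6 and -0.10 for Akap12, and mdx:Utrn+/- minus mdx under saline gave 0.24 for Akap12. With the platelet score as a term Prkar2b gave -0.11 for PB1046 in mdx:Utrn+/-. With log2 Rn45s as a term the PB1046 response of Prkar2a in mdx:Utrn+/- minus mdx was 0.19. Leaving out each library in turn, PB1046 in mdx:Utrn+/- ranged from -0.21 to 0.64 for Prkar2a and from -0.38 to 0.66 for Prkar2b, with -0.03 for Prkar2b without saline replicate 3. Over all 10 members and 7 comparisons, 146 of 1783 values turned sign and 0 passed. The cause was not tested.

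The number of genes past the adjusted threshold was 0 under all alternatives in 6 of 7 comparisons; for the difference of the PB1046 responses it ranged from 0 to 1 when each library was left out, and the 1 gene came without mdx:Utrn+/- saline replicate 3. Same-numbered libraries of 2 groups did not deviate together (r of deviations -0.443 to 0.491, median 0.0446, 18 pairs), so the number was not used to pair them; with the replicate block 0 genes passed in all 7 comparisons, and Akap12 and Prkar2a in mdx had unadjusted p of 0.0408 and 0.0369 (limma; adjusted p = 0.995 for both). For PB1046 in mdx the leave-one-out ranges were 0.55 to 0.95 for Prkar2a, 0.65 to 0.97 for Prkar2b and 0.53 to 1.83 for Akap12. Prkar2b, at 7 to 146 reads, is limited by depth, and its difference in mdx was 0.28 with a pseudocount of 4 TPM and 1.65 with 0.1 TPM; over all alternatives it ran from 0.19 (platelet term) to 1.98 (limma-voom). With 5 TPM as the filter Prkar2b was not tested.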

Other observations

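Prkacb as a share of catalytic TPM was lowest in the library numbered 1 in each of the 4 groups: 8.95%, 8.21%, 10.9% and 10.8% in mdx:Utrn+/- with PB1046, mdx:Utrn+/- with saline, mdx with PB1046 and mdx with saline, against 11.0% to 15.7% in the other 8 libraries. The first 3 of these 4 carry the lowest library numbers of the series, and the last does not. This was seen after the values were, and was not tested.

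The authors' deposited table gives its smallest p-value for a member where both genotype and treatment differ: for mdx:Utrn+/- with saline and mdx with PB1046, Akap12 has a log2 fold change of 1.99 for the second minus the first (p-value 7.99e-05, false discovery rate 0.534). For mdx:Utrn+/- with PB1046 and mdx with PB1046, the authors' deposited table gives 1.28 for Akap12 (p-value 0.0092).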
